A study of Mus musculus with 21 samples.

Results

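The epidermal growth factor (EGF) family ligands Areg, Ereg, Hbegf, Tgfa and Nrg1 and the ErbB receptors Egfr, Erbb2, Erbb3 and Erbb4 were followed across the cell types of a mouse melanoma model. They were chosen by name, as 5 ligands and 4 receptors of the family, and all 9 are among the 32285 genes of the single-cell count table. Each was read in CPM, its UMIs (unique molecular identifiers, 1 per captured mRNA molecule) per 1000000 UMIs of all cells of a type in a library.

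The mice carried mT/mG, an allele that makes host cells fluoresce through tdTomato, and had received fragments of MT-ret melanoma, a tumor line driven by a Ret transgene, which lack tdTomato. Host cells (TME, tumor microenvironment) came from 4 libraries of lung metastases, 4 of primary tumors and 4 of unchallenged lungs that had received no tumor. The tdTomato- melanoma cells, labelled MM, were sorted apart in 2 libraries from lung metastases and 2 from primary tumors. The labels give neither strain background nor age, name the lung as the tissue of every sample including the primary tumors, and do not say which library was gated on tdTomato+ CD45- cells and which on all living tdTomato+ cells. The library names call the primary tumors skin tumors, and the study placed the fragments under the skin. Skin against lung therefore cannot be told apart from other differences between primary tumors and either lung tissue. The library called replicate 1 to 3 of the lung metastases pools mice 2 and 3, and that of the primary tumors pools mice 1, 2 and 3, by the library names in the table. The study used male and female mice, and the sex of each library was not used here.

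EGF family ligands are made as membrane proteins that proteases release, and they act on neighbouring cells or on the cell that makes them. Areg, Ereg, Hbegf and Tgfa bind Egfr, Hbegf and Ereg also bind Erbb4, and Nrg1 binds Erbb3 and Erbb4. Erbb2 has no known ligand of its own and pairs with the other receptors, and Erbb3 has almost no kinase activity of its own and signals through its partner. The receptors feed the ERK pathway, which raises genes such as Dusp4, Spry1 and Etv4. In lung the family is known for epithelial growth and repair, and Erbb3 is known as a receptor of the neural crest, from which melanocytes arise.

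Counts of 24 library names were held for 110283 barcodes, of which 9924 under 5 names were exact copies of another name and were used once. One of the copied names is labelled as sorted MM cells of lung metastasis replicate 6 and holds the 1036 cells of the TME library of that replicate, of which 21 were melanoma cells, and the copies carry other mouse numbers than the names kept. The cells were used as TME under the first number. Without this library the calls of Egfr in fibroblasts, of Hbegf in endothelium and of Nrg1 in macrophages between primary tumors and another tissue stood, that of Areg in fibroblasts was lost (adjusted p = 0.052), and Hbegf in neutrophils failed the filter on low counts. This left 100359 cells in 16 libraries with 1777036 to 60339415 UMIs each. Median UMIs per cell were 1203 in primary tumor replicate 6, 1605 in unchallenged lung replicate 6 and 1654 in the MM library of primary tumor replicate 4, and 3050 to 5356 in the others. Other names shared at most 227 barcodes and 0 of these had equal counts. Clusters were named from fixed marker lists as melanoma-like, fibroblast-like, endothelial-like and so on, and short names are used from here on. All 9 fibroblast markers and all 11 endothelial markers were detected in every TME and unchallenged lung library that held at least 20 cells of the class, as were all 12 macrophage markers and 6 to 7 of 7 neutrophil markers. All 11 melanoma markers were detected in each of the 4 sorted MM libraries, summing to 22529 to 29017 CPM. Clusters were named from these lists, so such detection was fixed in advance and does not set the classes apart. All 12 macrophage markers, for example, were also detected in endothelium of every unchallenged lung library. In fibroblasts of the primary tumor libraries the AT-2 (alveolar type 2) and club cell markers summed to 0 to 5.79 and 0 to 9.79 CPM, with 0 to 4 of 6 and 0 to 5 of 5 detected.

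By the gene annotation of GRCm38, Ereg (chr5:91074622-91093646, + strand) and Areg (chr5:91139599-91148432, + strand) lie next to each other, 45952 bases apart. Tgfa lies at chr6:86195223-86275719 (+), Nrg1 at chr8:31814551-32884029 (-), Egfr at chr11:16752203-16918158 (+), Erbb2 at chr11:98412470-98437716 (+), Erbb3 at chr10:128567523-128589652 (-) and Erbb4 at chr1:68032186-69108059 (-). Several share bases with other genes: Egfros lies inside Egfr on the opposite strand, Mien1 overlaps the end of Erbb2 and Gm19610 the start of Ereg, both on the opposite strand, and Gm16076 lies in Erbb4 on its strand. Counts were made by Cell Ranger with default parameters, which for 3' libraries takes reads on the sense strand, so reads of Egfr and Egfros were counted apart.

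Areg and Egfr, the ligand and the receptor among the 9 members that were called between fibroblasts of the tissues, are shown by the 250 bases before their start sites, chr5:91139349-91139598 and chr11:16751953-16752202, both on the + strand and both from RefSeq (GRCm38.p6). Capitals mark exact matches, on either strand, of 4 of the 7 motifs searched: the cAMP response element TGACGTCA, the AP-1 motif TGANTCA, the GC box GGGCGG and the TATA box TATAAA.
Areg: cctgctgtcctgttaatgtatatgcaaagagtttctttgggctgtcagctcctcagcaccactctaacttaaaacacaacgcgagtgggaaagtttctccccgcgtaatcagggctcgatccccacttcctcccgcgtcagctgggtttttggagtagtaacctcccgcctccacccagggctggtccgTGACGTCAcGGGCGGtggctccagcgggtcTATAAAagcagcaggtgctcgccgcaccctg
Egfr: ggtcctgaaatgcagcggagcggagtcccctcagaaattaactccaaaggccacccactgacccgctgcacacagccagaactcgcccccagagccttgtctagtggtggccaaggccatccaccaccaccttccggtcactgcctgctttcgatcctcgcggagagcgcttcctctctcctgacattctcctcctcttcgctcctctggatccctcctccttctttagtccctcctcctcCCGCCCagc
The Areg window holds the cAMP response element, a GC box and a TATA box, which start 61, 52 and 31 bases before the gene, and no AP-1 match. The Egfr window holds a GC box on the reverse strand, 9 bases before the gene. The shorter TGACG, a part of the cAMP response element, matched 3 times in the Areg window, on both strands inside that element and once 115 bases before the gene, where it is left in lower case, and not in the Egfr window. The E-box CACGTG and the M-box TCATGTG matched neither window. Of 32851 promoter windows of the same length, 1.55% hold the cAMP response element, 6.75% the AP-1 motif, 32.7% the GC box, 12.4% the TATA box, 17.8% TGACG, 6.02% the E-box and 3.25% the M-box. The matches describe the letters of these windows and were tied to no measurement.

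Each gene of the family had its own set of cell types. Of all UMIs of Erbb3, 85.6% lay in melanoma cells, which held 51.1% of all UMIs, and of Egfr 70.5% lay in fibroblasts, which held 4.48%. Ereg, an Egfr and Erbb4 ligand, had 75.1% of its 197 UMIs in fibroblasts and 19.3% in macrophages. Ciliated cells, with 6.09% of all UMIs, held 56.7% of Nrg1 and 44.2% of Areg, and fibroblasts another 24.0% of Areg. Without primary tumor replicate 6 fibroblasts held 4.14% of Areg and 28.1% of the 64 Ereg UMIs left, and macrophages 59.4% of the latter. Without primary tumor replicate 4 macrophages held 3.85% of Ereg. Melanoma cells held 71.9% of Tgfa, 54.7% of Hbegf and 37.3% of Erbb2. Erbb4 was near its limit of detection, with 119 UMIs in all. Cell types were rebuilt from the same counts, so these differences between types are given without a test.

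**Figure D1:**
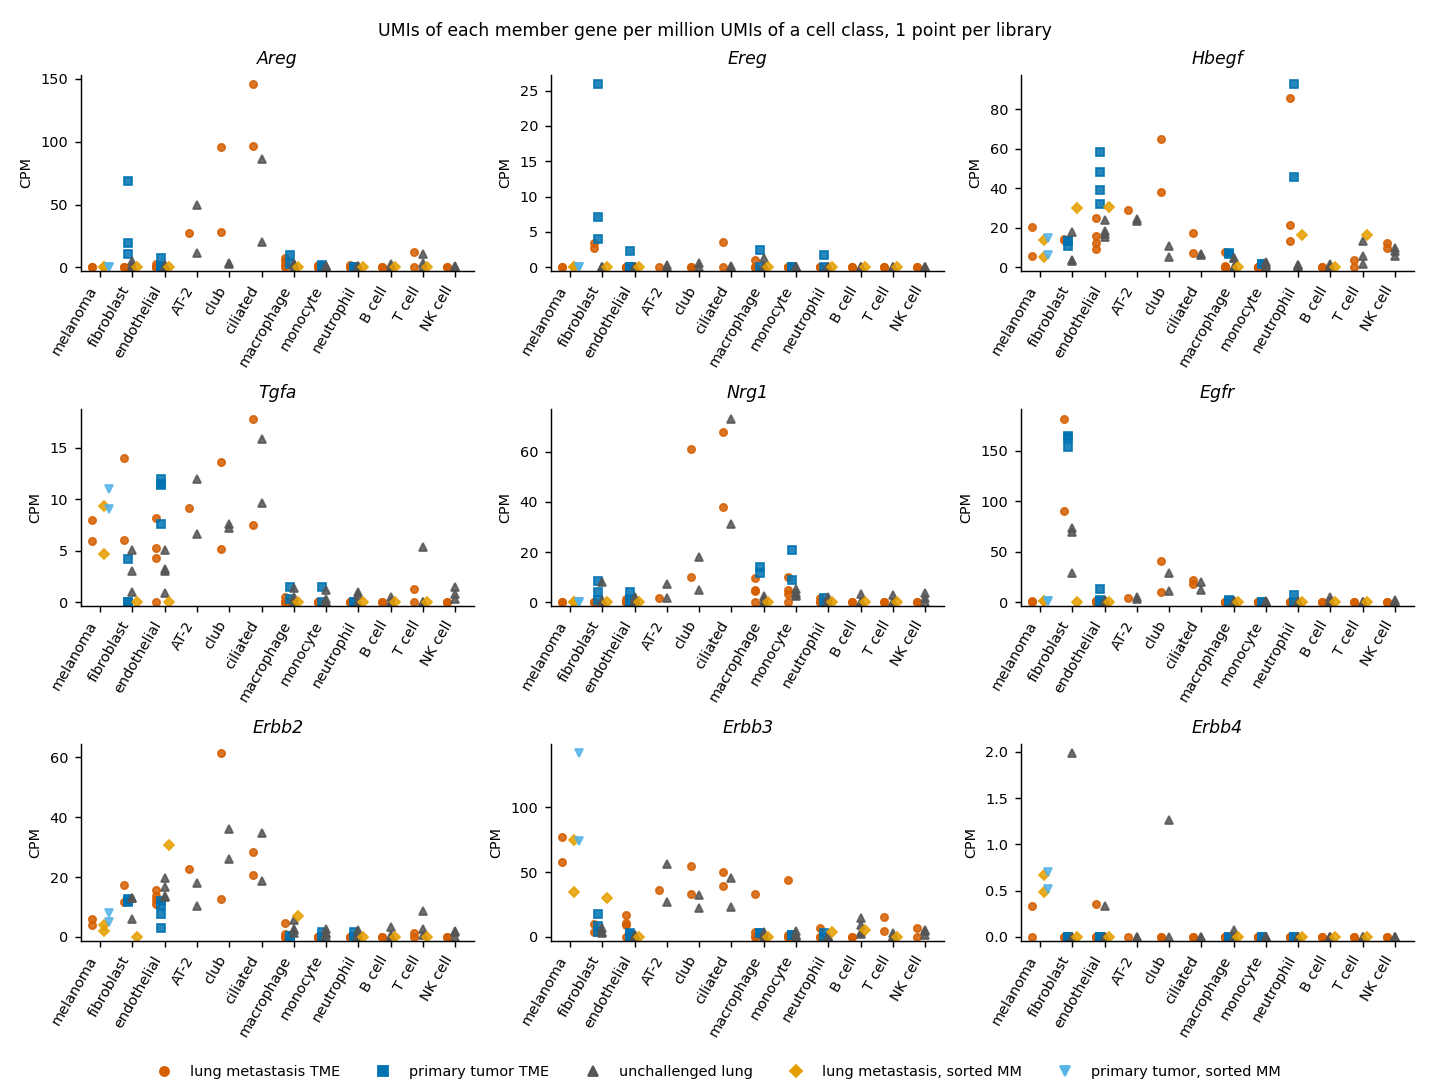
CPM of the 9 genes (vertical axes, UMIs per 1000000 UMIs of the class in a library) in 12 cell classes (horizontal axes); each point is 1 library with at least 20 cells of the class, coloured by its group. Egfr is highest in fibroblasts, Erbb3 in melanoma cells, Areg and Nrg1 in ciliated cells, and Ereg is at most 3.56 CPM outside fibroblasts.

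Over libraries, the median level of Egfr was 90.1 CPM in fibroblasts, 20.1 in club cells and 18.8 in ciliated cells. The range of fibroblasts was 0 to 182, the 0 from 23 fibroblasts in the MM library of lung metastasis replicate 5. The ranges of fibroblasts and club cells (10.2 to 40.9) overlapped, as did those of club and ciliated cells (12.1 to 22.3), whereas those of ciliated and AT-2 cells (2.98 to 4.69) did not. For Areg the order was ciliated cells (median 91.4), AT-2 cells (27.3), club cells (15.9), macrophages (2.73) and fibroblasts (1.98), with overlapping ranges between neighbours. In libraries with at least 50 cells of a class, club cells (28.1) came before AT-2 cells (27.3) and fibroblasts (3.52) before macrophages (2.80), and the fibroblast median pools tissues of very different levels. For Erbb3 melanoma cells (median 74.4) came before ciliated (42.0), AT-2 (36.4) and club cells (32.9), again with overlapping ranges. Erbb2 was highest in club (31.0) and ciliated cells (24.6) and was measured in every class of epithelium, endothelium (13.4) and fibroblasts (12.1). Hbegf and Tgfa were spread over many classes, with medians of Hbegf of 24.6 in both AT-2 and club cells and 23.9 in endothelium, and of Tgfa of 12.7 in ciliated cells and 8.50 in melanoma cells. Since neighbouring ranges overlapped in nearly every case, these orders are of medians.

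Tissues were compared within fibroblasts, endothelial cells, macrophages, neutrophils and the sorted MM cells, by 13 comparisons of UMI sums per library in edgeR's quasi-likelihood test. P-values were adjusted by the Benjamini-Hochberg method over every gene in the comparison, and a gene with an adjusted p under 0.05 was called. Of the 9 genes, 8 passed the filter on low counts in at least 1 comparison, which gave 39 tests. Of these tests 7 were called, for 4 genes: Areg, Egfr, Hbegf and Nrg1. Among all genes tested, 0.00698% (sorted MM cells) to 28.1% (endothelium, primary tumors against unchallenged lungs) were called, depending on the comparison. Ereg passed the filter in no comparison. Without the filter 74 more tests could be made, of which 5 were called, and these are given beside the genes with the share of all genes called. Where a group has 2 libraries, leaving out 1 leaves a lone library whose spread is taken from the others in the fit. In bulk sums of a class, fewer cells with a gene and less of it per cell cannot be told apart. Libraries of a tissue came from separate mice or pools, but p-values measure only the spread between these libraries. Statements that the libraries of tissues do not overlap describe levels, and the share of all genes that do so is not given.

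Areg, a low-affinity Egfr ligand, was higher in fibroblasts of primary tumors than in those of unchallenged lungs or lung metastases. It stood at 19.6, 10.8 and 68.9 CPM in fibroblasts of primary tumor replicates 4, 5 and 6 (22, 8 and 345 UMIs). In lung metastasis replicates 5 and 6 it stood at 0.55 and 0 CPM (1 and 0 UMIs), and in unchallenged lung replicates 4, 5 and 6 at 0, 1.98 and 5.06 (0, 2 and 21 UMIs). Every primary tumor library was above every other library, and the primary tumor libraries themselves spread widely, with replicate 6 highest. Areg was higher in primary tumors (33.1 ± 31.3 CPM, SD, n = 3) than in unchallenged lungs (2.35 ± 2.55, n = 3) by 3.37 on the log2 scale (SE 0.80), a fitted 10.3-fold difference (edgeR's quasi-likelihood test, adjusted p = 0.026). Areg and Egfr were the 2 members called in this comparison, of 5 tested, where 12.1% of the 11135 genes tested were called. The call of Areg was lost without lung metastasis replicate 5 or 6, unchallenged lung replicate 5 or primary tumor replicate 6, and without the last the difference was 2.25 (adjusted p = 0.166). Against lung metastases, Areg differed by -5.98 (SE 1.36, adjusted p = 0.078), which was not called, where 1.1% of genes were. DESeq2 and 4 other settings called it, among them the fit with the replicate number as a block (-5.31, edgeR, adjusted p = 0.035). That block joins tumor libraries of mice 17 and 18 with unchallenged lungs of mice 19 and 20, so it marks shared animals only in part. On summed UMIs, 375 in primary tumors against 1 in lung metastases, the ratio of CPM was 114 with a 95% counting interval of 20.4 to 4528, which covers counting error only. Without primary tumor replicate 6, which held 345 of these UMIs, it was 33.7 (5.60 to 1374). Without lung metastasis replicate 5, which held the 1 UMI, Areg was at least 5.20-fold higher in primary tumors. Of the 5 members tested between lung metastases and unchallenged lungs, 0 were called (1 at an unadjusted p below 0.05, and 0 in DESeq2), where 1.04% of genes were.

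Ereg, which lies beside Areg, failed the filter on low counts, and its UMIs were also most frequent in fibroblasts of primary tumors. Fibroblasts of primary tumor replicates 4, 5 and 6 held 8, 3 and 130 UMIs of Ereg (7.11, 4.04 and 26.0 CPM). Lung metastasis replicates 5 and 6 held 5 and 1 (2.76 and 3.499 CPM), and the 3 unchallenged lung libraries held 0. All primary tumor libraries were above all others, by a small margin in replicate 5. With 141 UMIs against 0, Ereg was at least 37.5-fold higher in primary tumors than in unchallenged lungs, taking 3 counts over the group as the limit that a count of 0 allows. Without primary tumor replicate 6 this bound was 10.8-fold, from 11 UMIs, and without unchallenged lung replicate 6 it was 9.17-fold. Against lung metastases (141 and 6 UMIs) the ratio was 7.16 (95% counting interval 3.21 to 19.9), and without primary tumor replicate 6 it was 2.06 (0.697 to 6.78). The 6 UMIs of lung metastases stood 5.24-fold over the same limit for unchallenged lungs, and 1.28-fold without unchallenged lung replicate 6. Without lung metastasis replicate 5, a single UMI stood 6.40-fold over it. These folds leave out counting error in the counted UMIs, so with so few they set no lower bound. Fitted without the filter, Ereg was called between primary tumors and unchallenged lungs (edgeR, adjusted p = 0.00089), where 11.7% of 21272 genes were. It was not called between lung metastases and primary tumors (-2.18, SE 1.08, adjusted p = 0.62) or unchallenged lungs (adjusted p = 0.083). Outside fibroblasts, Ereg reached 3.56 CPM in ciliated cells of lung metastasis replicate 6 (1 UMI) and 2.43 CPM in macrophages of primary tumor replicate 4, and was 0 in all melanoma libraries.

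Egfr, the receptor of Areg and Ereg, was also higher in fibroblasts of primary tumors, and its level was high in lung metastases too. Its levels were 163, 164 and 154 CPM in primary tumor replicates 4, 5 and 6 (183, 122 and 770 UMIs). They were 90.1 and 182 CPM in lung metastasis replicates 5 and 6 (163 and 52 UMIs), and 69.1, 73.4 and 28.4 CPM in unchallenged lung replicates 4, 5 and 6 (23, 74 and 118 UMIs). Every library of either tumor tissue was above every unchallenged lung library, and the ranges of the tumor tissues overlapped. Egfr was higher in primary tumors (160.3 ± 5.65 CPM, n = 3) than in unchallenged lungs (57.0 ± 24.8, n = 3) by 1.62 (SE 0.41), a fitted 3.06-fold difference (edgeR, adjusted p = 0.034). That call was lost without any 1 of the primary tumor libraries or without unchallenged lung replicate 4 or 6. It was also lost with only the libraries whose names carry run 3, a batch whose kind the names do not give. Across these fits edgeR's adjusted p was 0.054 to 0.111, at differences of 1.23 to 1.72. Egfros, the antisense gene inside Egfr, was also above unchallenged lungs (0 to 3.00 CPM) in every library of either tumor tissue. It stood at 28.5, 84.8 and 59.9 CPM in primary tumor replicates 4, 5 and 6 and at 13.3 and 24.5 in lung metastases. Among these libraries it did not follow the order of Egfr, and its part in the Egfr result was not tested. Between lung metastases and unchallenged lungs Egfr differed by 1.30 (SE 0.45, adjusted p = 0.176) and between lung metastases and primary tumors by -0.32 (SE 0.45, adjusted p = 0.94), neither of which was called. Over 16 other settings the difference between lung metastases and primary tumors ran from -2.24 to 0.045 and was called in none.

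**Figure D2:**
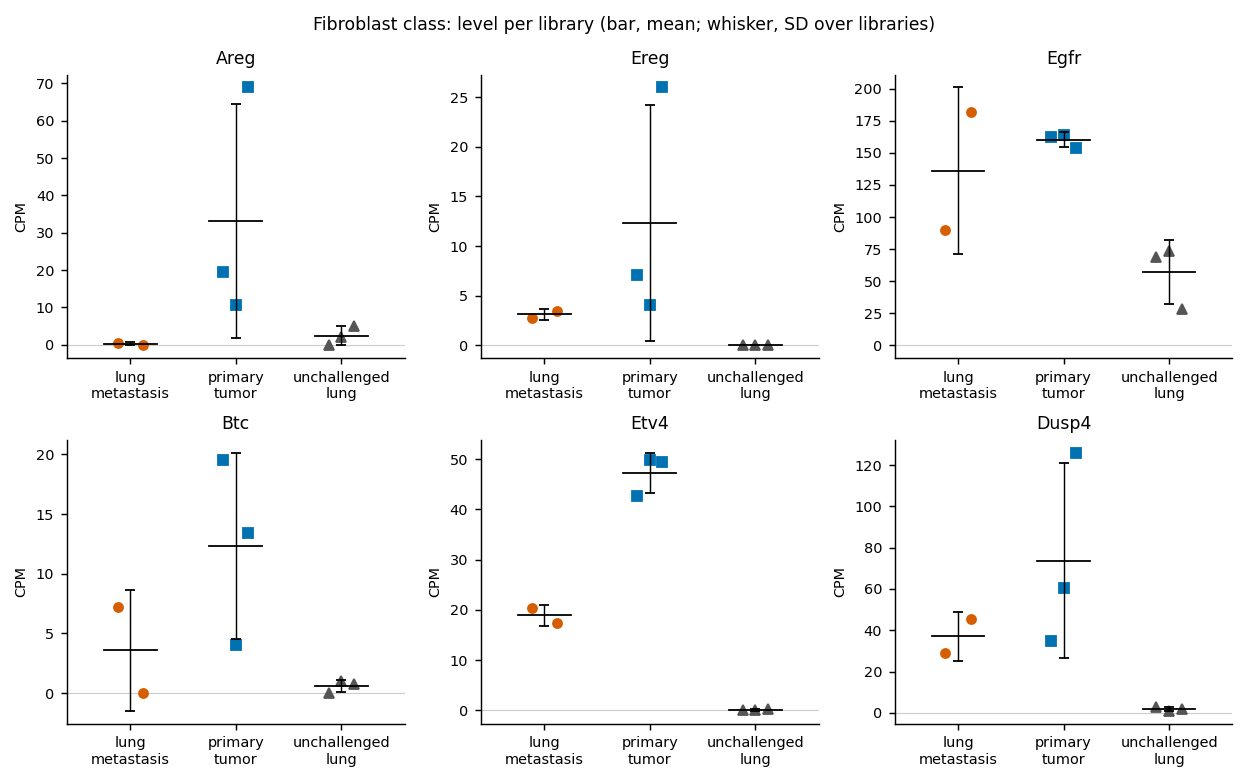
CPM in fibroblasts of lung metastases (LM), primary tumors (PT) and unchallenged lungs (UL) for Areg, Ereg, Egfr, the ligand Btc and the ERK response genes Etv4 and Dusp4; points are libraries, bars are means and whiskers SD. Areg and Ereg are highest in the 3 primary tumor libraries, and Egfr, Etv4 and Dusp4 are above the unchallenged lung libraries in both tumor tissues.

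After thinning each cell to 1000 UMIs, the share of fibroblasts with an Egfr UMI was highest in primary tumors, whereas before thinning the tissues overlapped. The thinned shares were 15.1%, 13.6% and 9.64% in primary tumor replicates 4, 5 and 6 (45.3%, 45.7% and 19.1% before thinning). They were 9.24% and 4.08% in lung metastases (25.2% and 41.5%) and 2.82%, 5.95% and 2.29% in unchallenged lungs (18.3%, 31.5% and 4.94%). Cells below 1000 UMIs were left out, which kept 422 of 436 and 49 of 53 cells in lung metastasis replicates 5 and 6, 132 of 138 and 1525 of 2059 in primary tumor replicates 5 and 6, 1964 of 2186 in unchallenged lung replicate 6 and all in the others. B cells, which should lack Egfr, had thinned shares of 0 to 0.10%. Median depths were 1130 to 6002 UMIs in fibroblasts and 1514 to 4431 in B cells. The order of the 2 lung metastasis libraries in thinned share went against that of their CPM and is not read.

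The fibroblasts of the 3 tissues fell largely into different clusters. Many of those of primary tumors and unchallenged lungs lay in subclusters led by other types' genes, given below. The clusters alone therefore do not show different kinds of fibroblast. Cluster 7 held 98.1% of the class in unchallenged lungs, cluster 17 held 77.3% in lung metastases, and in primary tumors cluster 15 held 61.0% and cluster 17 39.0%. Within named subclasses, parenchymal-like fibroblasts of the primary tumors had the highest Areg, at 32.1, 26.1 and 103 CPM, the highest Ereg, at 12.2, 9.80 and 41.8, and high Egfr, at 248.9, 232 and 218. Egfros stood at 45.8, 147 and 96.8 CPM in the same cells, and is among the 10 leading genes of the larger subcluster in this class. That subcluster held 0 markers of its name among those 10, and its cells had a median depth of 4.24 times that of their libraries. Egfros was not left out of the clustering, and its part in the Egfr level of these cells was not tested. Mesothelial-like cells of lung metastases carried Egfr at 129 and 238 CPM with no Areg UMI. Adventitial-like cells had Egfr of 99.5 and 95.2 CPM in unchallenged lungs and 47.1 in lung metastasis replicate 5, and alveolar-like cells had 75.9, 27.6 and 12.2 CPM in unchallenged lungs. Without mesothelial-like cells Egfr in lung metastases was 35.8 and 37.5 CPM, inside the 28.9 to 74.5 CPM of unchallenged lungs, while primary tumors stayed at 154 to 167. Without them the fitted difference between lung metastases and unchallenged lungs turned to -0.62 (adjusted p = 0.93).

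**Figure D3:**
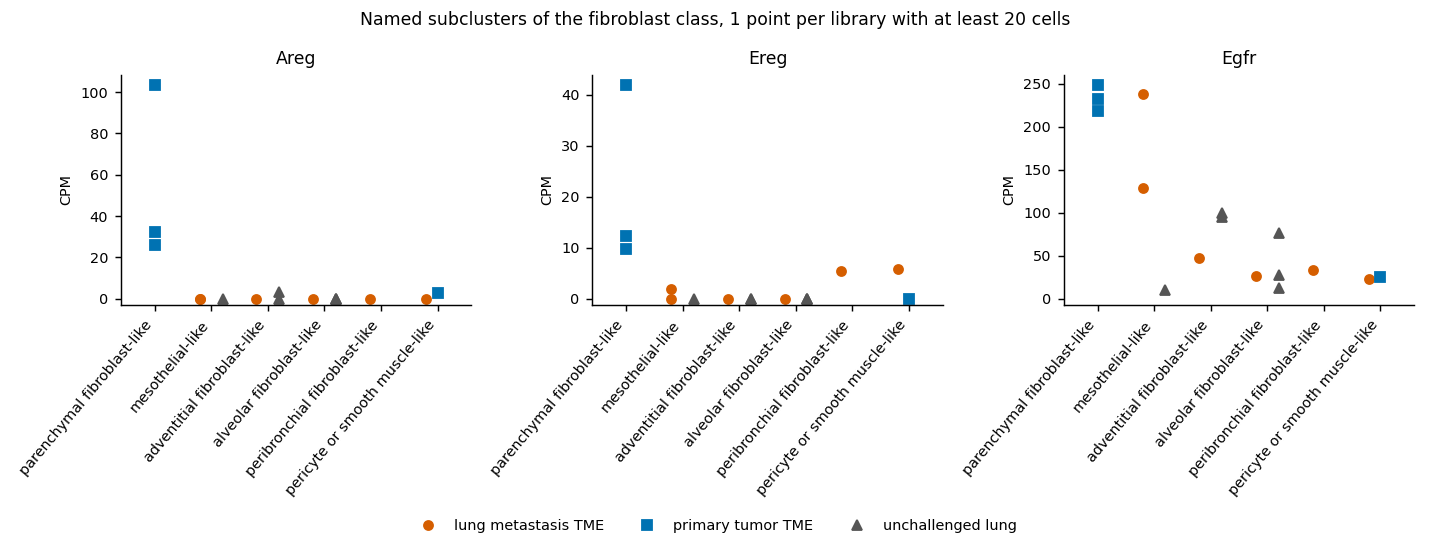
CPM of Areg, Ereg and Egfr in named subclasses of the fibroblast class; each point is 1 library with at least 20 cells of the subclass, coloured by tissue. Parenchymal-like cells of primary tumors have the highest Areg and Ereg, and Egfr is high there and in mesothelial-like cells of lung metastases.

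Genes of other cell types were also counted in these fibroblasts. Melanoma markers summed to 1732 to 6258 CPM in lung metastases, 1646 to 6382 in primary tumors and 266 to 671 in unchallenged lungs, with 10 to 11, 10 to 11 and 2 to 9 of 11 detected. Macrophage markers summed to 808 to 1800, 105 to 1534 and 2111 to 8884 CPM in the same order. Ciliated cell markers, from the class with most Areg, summed to 45.3 to 128 CPM in primary tumors, 66.5 to 106.6 in lung metastases and 84.1 to 1398 in unchallenged lungs. Subclusters led by genes of other types held 3.75%, 61.3% and 87.2% of the fibroblasts of lung metastases, primary tumors and unchallenged lungs. By library these shares were 1.04%, 8.70% and 70.9% in primary tumor replicates 4, 5 and 6. In unchallenged lung replicates 4, 5 and 6 they were 36.6%, 12.5% and 94.7%. Without them Areg was 11.001 to 89.1 CPM in primary tumors, 0 to 2.12 in unchallenged lungs and 0 to 0.56 in lung metastases, and Egfr was 163 to 208, 46.6 to 81.6 and 91.3 to 186. In these cells Areg and Egfr of primary tumors again lay above unchallenged lungs in every library. Melanoma cells held Egfr at no more than 1.07 CPM. The part of the melanoma, macrophage and ciliated cell markers in the Areg and Egfr results was not tested.

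Areg was also counted in lung epithelium, where tissues were not tested, and in macrophages, where no difference was called. In ciliated cells, which beat mucus along the airway, it was 96.8 and 146 CPM in lung metastases and 86.0 and 20.2 in unchallenged lungs, and in club cells, which secrete into the airway, 28.1 and 95.4 against 3.61 and 2.53. AT-2 cells, which make surfactant, had Areg at 27.3 CPM in the only lung metastasis library with enough of them and at 50.0 and 11.3 in unchallenged lungs. Macrophages held Areg at 2.98 and 9.65 CPM in primary tumors, 0 to 7.43 in lung metastases and 0 to 2.88 in unchallenged lungs. The difference between primary tumors and unchallenged lungs in macrophages was 1.89 (SE 0.73, edgeR, adjusted p = 0.098). Subclusters led by genes of other types held 58.3% of the ciliated class, 89.5% of it in lung metastases (294 of 298 cells in replicate 5) and 56.8% in unchallenged lungs. In the 1 subcluster that took the ciliated name, with all 6 markers raised but Ddx3y, Uty and Gm14964 as leading genes, Areg was 46.7 to 85.7 CPM and Nrg1 58.0 to 76.8.

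Hbegf, a heparin-binding ligand of Egfr and Erbb4, was higher in endothelium of primary tumors than of either lung tissue. It stood at 32.0, 48.3, 58.2 and 39.3 CPM in the 4 primary tumor libraries (8, 38, 41 and 52 UMIs). In lung metastases it was 15.8, 9.14, 25.1 and 12.2 CPM (3, 6, 71 and 9 UMIs) and in unchallenged lungs 16.7, 15.5, 23.9 and 18.5 CPM (50, 108, 142 and 22 UMIs). The primary tumor libraries lay above all others, and the lung tissues overlapped. Hbegf was higher in primary tumors (44.4 ± 11.3 CPM, n = 4) than in unchallenged lungs (18.6 ± 3.68, n = 4) by 1.39 (SE 0.30), 2.62-fold (edgeR, adjusted p = 0.0029). It was the 1 member called of 2 tested, where 28.1% of 9695 genes were called. It was lower in lung metastases (15.6 ± 6.93, n = 4) than in primary tumors by 1.43 (SE 0.33), 2.70-fold (edgeR, adjusted p = 0.011), again 1 of 2 members tested beside 11.8% of genes. This second call was lost with run 3 alone (-1.20, adjusted p = 0.094). Lung metastases and unchallenged lungs differed by -0.04 (SE 0.32, adjusted p = 0.98), where 0 of 2 members (0 at an unadjusted p below 0.05, 0 in DESeq2) and 3.39% of genes were called.

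The endothelium of the tissues also fell into different clusters. Cluster 11 held 98.6% of it in primary tumors and 46.7% in lung metastases, and cluster 6 held 38.7% in lung metastases and 62.7% in unchallenged lungs. A subcluster that was almost all primary tumor (284 of 295 cells), led by Adamts18, Tacr1 and Meox2, had Hbegf at 42.6 to 80.1 CPM. In unchallenged lungs an endothelial subcluster led by Sfrp1, Gkn3, Hey2 and Gja5, of which the last 2 are genes of arteries, had Hbegf at 64.6 and 57.1 CPM, general capillary-like cells 17.6 to 36.6 and aerocyte-like cells 0 to 7.27. Melanoma markers summed to 559 to 9099 CPM in endothelium of lung metastases, 478 to 2319 in primary tumors and 18.8 to 54.6 in unchallenged lungs. Fibroblast markers summed to 89.6 to 1063, 747 to 2503 and 49.8 to 522 CPM. Subclusters led by other types' genes held 80.3%, 29.3% and 8.08% of the endothelium of lung metastases, primary tumors and unchallenged lungs. Without them Hbegf was 32.5 to 61.0 CPM in primary tumors, 9.14 to 18.6 in lung metastases and 15.6 to 23.2 in unchallenged lungs, with primary tumors above both lung tissues.

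Hbegf in neutrophils, short-lived cells of acute inflammation, was near 0 in unchallenged lungs and present in both tumor tissues. It was 21.7, 13.2 and 85.7 CPM in 3 lung metastasis libraries (5, 1 and 50 UMIs), 92.9 and 46.0 CPM in 2 primary tumor libraries (7 and 27 UMIs), and 0, 0, 1.10 and 0.98 CPM in unchallenged lungs (0, 0, 3 and 1 UMIs). All tumor libraries were above all unchallenged lung libraries. Hbegf was higher than in unchallenged lungs (0.522 ± 0.605 CPM, n = 4) in lung metastases (40.2 ± 39.6, n = 3) by 5.49 (SE 0.78, edgeR, adjusted p = 4.8e-04) and in primary tumors (69.4 ± 33.2, n = 2) by 5.75 (SE 0.85, adjusted p = 8.5e-04). It was the only member tested in neutrophils, where 14.4% and 7.62% of 3926 genes were called in these comparisons. On summed UMIs the ratios of CPM were 62.2 (95% counting interval 23.0 to 236) and 50.7 (18.1 to 197). Without lung metastasis replicate 6, which held 50 of 56 UMIs, Hbegf failed the filter and the first ratio was 19.4 (4.59 to 93.3), and without primary tumor replicate 4, which held 27 of 34, the second was 91.9 (23.4 to 428). Lung metastases and primary tumors differed by -0.26 (SE 0.65, adjusted p = 0.97), not called by edgeR at an adjusted or unadjusted p below 0.05 nor by DESeq2, where 0.229% of genes were called. The counts are few: thinned to 1000 UMIs, 1.79% to 2.50% of neutrophils in lung metastases and 1.57% and 6.06% in primary tumors had a Hbegf UMI (2.16% to 4.55%, and 4.31% and 15.2%, unthinned), against 0 to 0.10% in unchallenged lungs (0 to 0.30%) and 0 to 0.23% in B cells. Neutrophils had median depths of 1459 to 3347 UMIs, and all were in cluster 8.

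Neutrophils of the tumor tissues lay mostly in a subcluster led by G0s2, Cxcl2 and Ier3, which held 272 cells of lung metastases, 281 of primary tumors and 11 of unchallenged lungs. In it Hbegf was 46.6, 13.4 and 89.9 CPM in lung metastases and 103 and 48.8 in primary tumors. Another subcluster held 1657 neutrophils, 1548 of them from unchallenged lungs, and its 83 cells of lung metastasis replicate 1 to 3 held 0 Hbegf UMIs. Macrophage markers in the neutrophil class summed to 3991 to 7659 CPM in lung metastases, 3119 to 6360 in primary tumors and 4921 to 5588 in unchallenged lungs, and melanoma markers to 1386 to 10129, 1450 to 1699 and 170 to 207. Macrophages themselves held Hbegf at 0 to 7.61 CPM, below every tumor neutrophil library, and melanoma cells at 5.33 to 20.3 CPM. Their part in the neutrophil result was not tested.

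**Figure D4:**
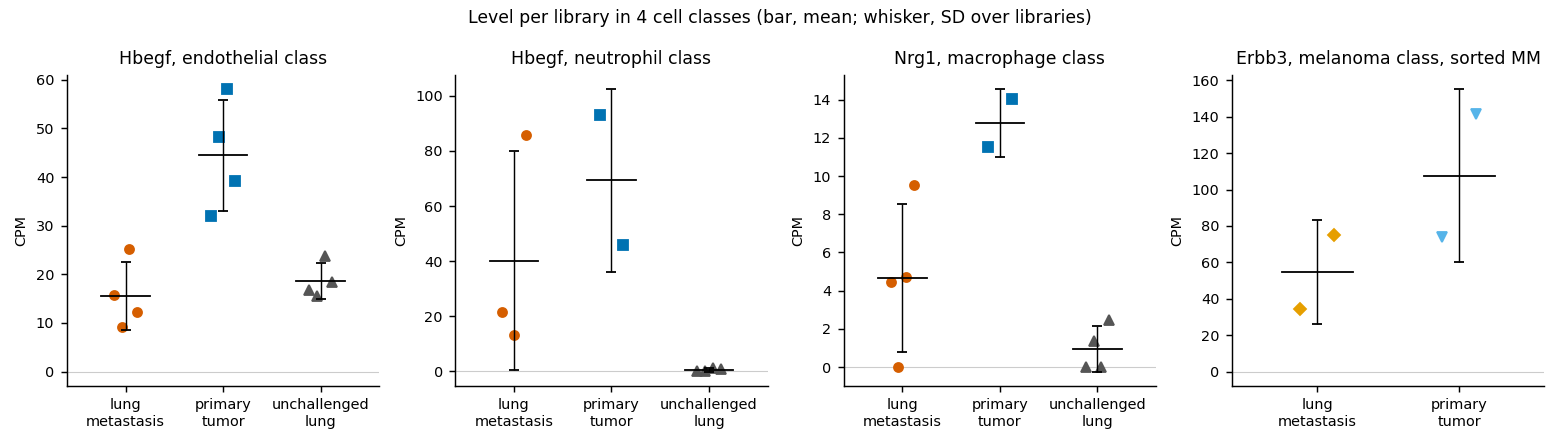
CPM of Hbegf in endothelium and neutrophils, Nrg1 in macrophages and Erbb3 in sorted MM cells, by tissue; points are libraries, with mean and SD. Hbegf in endothelium and Nrg1 in macrophages are highest in primary tumors, Hbegf in neutrophils is near 0 in unchallenged lungs alone, and the Erbb3 libraries overlap.

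Hbegf did not differ by a called amount in the other classes tested. Fibroblasts held it at 13.3, 13.5 and 10.99 CPM in primary tumors, 14.4 and 13.99 in lung metastases and 18.0, 3.97 and 3.37 in unchallenged lungs, with a difference of 1.10 (SE 0.62, edgeR, adjusted p = 0.289) between primary tumors and unchallenged lungs. In macrophages it was 7.07 and 6.61 CPM in primary tumors and 0 to 4.80 in unchallenged lungs, which did not overlap, with a difference of 1.37 (SE 0.84, adjusted p = 0.30). With the replicate number as a block this difference of Hbegf was called (4.59, SE 1.45, edgeR, adjusted p = 0.04996). Of the macrophage libraries of these tissues only replicate 4 shares a number, and the library names give it different mice, so the block marks no shared animal here. AT-2 cells held 28.8 CPM in lung metastases and 24.6 and 23.5 in unchallenged lungs, and club cells 38.4 and 64.7 against 10.8 and 5.37. No test was made in club or ciliated cells, and AT-2 cells had 1 lung metastasis library.

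Nrg1, the neuregulin ligand of Erbb3 and Erbb4, was higher in macrophages of primary tumors than of unchallenged lungs. It stood at 11.5 and 14.1 CPM in primary tumor replicates 1 to 3, pooled, and 4 (31 and 185 UMIs), at 4.46, 0, 4.73 and 9.52 in lung metastases (9, 0, 1 and 5 UMIs) and at 0, 1.36, 0 and 2.46 in unchallenged lungs (0, 1, 0 and 33 UMIs). Both primary tumor libraries were above all others, and the lung tissues overlapped. Nrg1 was higher in primary tumors (12.8 ± 1.78 CPM, n = 2) than in unchallenged lungs (0.957 ± 1.19, n = 4) by 3.39 (SE 0.69), 10.5-fold (edgeR, adjusted p = 0.0055). It was the 1 member called of 3 tested, where 15.9% of 11069 genes were called. Without primary tumor replicate 4, which leaves 1 primary tumor library, the difference was 3.37 and the call was lost. Leaving out each library in turn moved the difference between 3.09 and 5.59. Lung metastases differed from unchallenged lungs by 2.06 (SE 0.81, adjusted p = 0.21) and from primary tumors by -1.33 (SE 0.76, adjusted p = 0.68). In these comparisons 0 of 3 members were called by edgeR and by DESeq2 (1 and 0 at an unadjusted p below 0.05), beside 2.08% and 0.705% of genes. The replicate number as a block gave 513 and 210 genes called in place of 230 and 78, 0 of them members.

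Macrophages of the tissues fell largely into different clusters as well. Cluster 5 held 100% of the class in primary tumors and 62.8% in lung metastases. Cluster 3, which includes alveolar macrophage-like cells, held 84.4% in unchallenged lungs. A subcluster of 495 cells led by Arg1, Thbs1, Inhba and Spp1, with no cell from unchallenged lungs, had Nrg1 at 24.8 and 52.9 CPM in primary tumors (23 and 117 UMIs) and 17.9 and 20.4 in lung metastases (5 and 5 UMIs). It held 140 Nrg1 UMIs of primary tumors, where the macrophage class held 216, and Areg there was 8.63 and 50.2 CPM. In macrophages named at the finer level Nrg1 was 6.96 and 6.53 CPM in primary tumors and 0, 0, 0 and 5.75 in unchallenged lungs, the last from 3 UMIs. Ciliated cell markers, from the class with most Nrg1, summed to 87.1 to 133 CPM in macrophages of primary tumors and 111 to 425 in unchallenged lungs. Melanoma markers there summed to 970 to 1042 and 227 to 420 CPM, with 11 and 3 to 9 of 11 detected, and endothelial markers to 145 to 149 and 251 to 1631, with all 11 detected in each library. Subclusters led by genes of other types held 0.112% of the macrophages of primary tumors and 42.4% of those of unchallenged lungs, and their part in the Nrg1 result was not tested. With the cluster of C1q macrophages alone Nrg1 was 11.5 to 14.1 CPM in primary tumors and 0 to 3.11 in unchallenged lungs.

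Among the main classes, Nrg1 reached its highest levels in ciliated cells, at 38.1 and 67.7 CPM in lung metastases and 73.3 and 31.2 in unchallenged lungs. Monocytes held Nrg1 at 20.8 and 8.74 CPM in primary tumors (12 and 6 UMIs), 0 to 9.85 in lung metastases and 2.63 to 5.16 in unchallenged lungs. Among fibroblasts a small subcluster of primary tumors led by Lrrc15 and Wnt16 held Nrg1 at 8.50 and 87.8 CPM, with Egfr at 153 and 173. Melanoma cells, which carried most of its receptor Erbb3, held Nrg1 at no more than 0.0563 CPM.

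Tgfa, the Egfr ligand named for transforming cells in culture, was low in all classes and passed the filter on low counts in the sorted MM cells alone. In endothelium Tgfa was 11.98, 11.4, 11.4 and 7.55 CPM in primary tumors, 5.27, 0, 4.24 and 8.12 in lung metastases and 3.01, 0.86, 3.19 and 5.04 in unchallenged lungs. Primary tumors lay above unchallenged lungs, and overlapped with lung metastases. Fitted without the filter, Tgfa was called between primary tumors and unchallenged lungs (1.92, SE 0.65, edgeR, adjusted p = 0.043), where 16.7% of 20324 genes were, and so were Egfr (3.17, SE 1.01, adjusted p = 0.029), with 17 of its 20 UMIs in primary tumor replicate 6, and Ereg (adjusted p = 0.044), with 3 UMIs, all in that library. Ciliated cells held 7.45 to 17.8 CPM, AT-2 cells 6.62 to 11.9 and melanoma cells 4.66 to 10.96.

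Erbb3, the kinase-poor receptor of neuregulins, had most of its UMIs in melanoma cells. The sorted MM libraries held it at 34.6 and 74.97 CPM in lung metastasis replicates 4 and 5 (52 and 4509 UMIs) and at 73.9 and 141 CPM in primary tumor replicates 4 and 5 (4225 and 4335 UMIs). The library of 34.6 CPM had 289 melanoma cells, against 6259 to 30351 in the others, and the ranges overlapped. Melanoma cells found in the TME libraries of lung metastases held 57.4 and 77.1 CPM. Lung metastases (54.8 ± 28.5 CPM, n = 2) and primary tumors (107.7 ± 47.8, n = 2) differed by -0.95 (SE 0.40, edgeR, adjusted p = 1.00), not called, and without each library in turn by -1.59 to -0.56. Of 6 members tested, 0 were called by edgeR (1 at an unadjusted p below 0.05) and 0 by DESeq2, where 0.00698% of 14324 genes, a single gene, was called. With the replicate number as a block 115 genes were called, 0 of them members. Cluster 1 held 91.7% of the sorted cells of lung metastases and cluster 0 79.9% of those of primary tumors. Within cluster 1 Erbb3 was 43.5 and 75.05 CPM in lung metastases and 105.5 and 142.9 in primary tumors. These libraries did not overlap, which happens readily by chance with so few, and the difference within the cluster was not tested.

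The other members in MM cells were low and were not called. Hbegf differed between lung metastases and primary tumors by 0.02 (SE 0.45), Tgfa by -0.42 (SE 0.40), Egfr by -0.23 (SE 0.96), Erbb2 by -0.91 (SE 0.50) and Erbb4 by -0.33 (SE 1.07), each at an adjusted p of 1.00. Of these, the libraries of the tissues did not overlap for Erbb2, at 3.06 ± 1.502 CPM in lung metastases and 6.42 ± 2.08 in primary tumors (n = 2 each). With so few libraries this happens readily by chance, and no difference is read from it. Erbb4, the neuregulin receptor with its own kinase activity, had 92 UMIs in all melanoma cells, or 0 to 0.70 CPM.

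Outside melanoma, Erbb3 was found in lung epithelium, at 22.7 to 49.9 CPM in ciliated cells, 26.8 to 55.95 in AT-2 cells and 22.1 to 54.5 in club cells. In endothelium it was 0 to 16.98 CPM in lung metastases, 0 to 3.02 in primary tumors and 0.29 to 1.68 in unchallenged lungs, beside the melanoma markers given above. Fitted without the filter, Erbb3 was called between lung metastases and unchallenged lungs (3.54, SE 0.82, edgeR, adjusted p = 0.012), where 3.48% of 20324 genes were, with 48 of its 57 UMIs of lung metastases in replicate 5, and the part of the melanoma markers was not tested. In fibroblasts it was tested and not called in any comparison, with a difference of 1.04 (SE 0.67, adjusted p = 0.36) between primary tumors and unchallenged lungs.

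Erbb2, the partner receptor without a ligand, was found in epithelium, stroma and melanoma. It was 12.8 to 61.3 CPM in club cells, 18.7 to 34.9 in ciliated cells, 10.5 to 22.7 in AT-2 cells and 2.00 to 7.90 in melanoma cells. In endothelium Erbb2 was 11.98, 7.63, 2.84 and 10.6 CPM in primary tumors, 15.8, 12.2, 13.8 and 10.8 in lung metastases and 13.4, 13.5, 19.8 and 16.8 in unchallenged lungs. All primary tumor libraries lay below all unchallenged lung libraries (8.26 ± 4.04 and 15.9 ± 3.07 CPM, n = 4 each), with a difference of -0.87 (SE 0.35, edgeR, adjusted p = 0.078) that was not called. In fibroblasts Erbb2 differed by 0.16 (SE 0.41, adjusted p = 0.93) between primary tumors and unchallenged lungs.

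**Figure D5:**
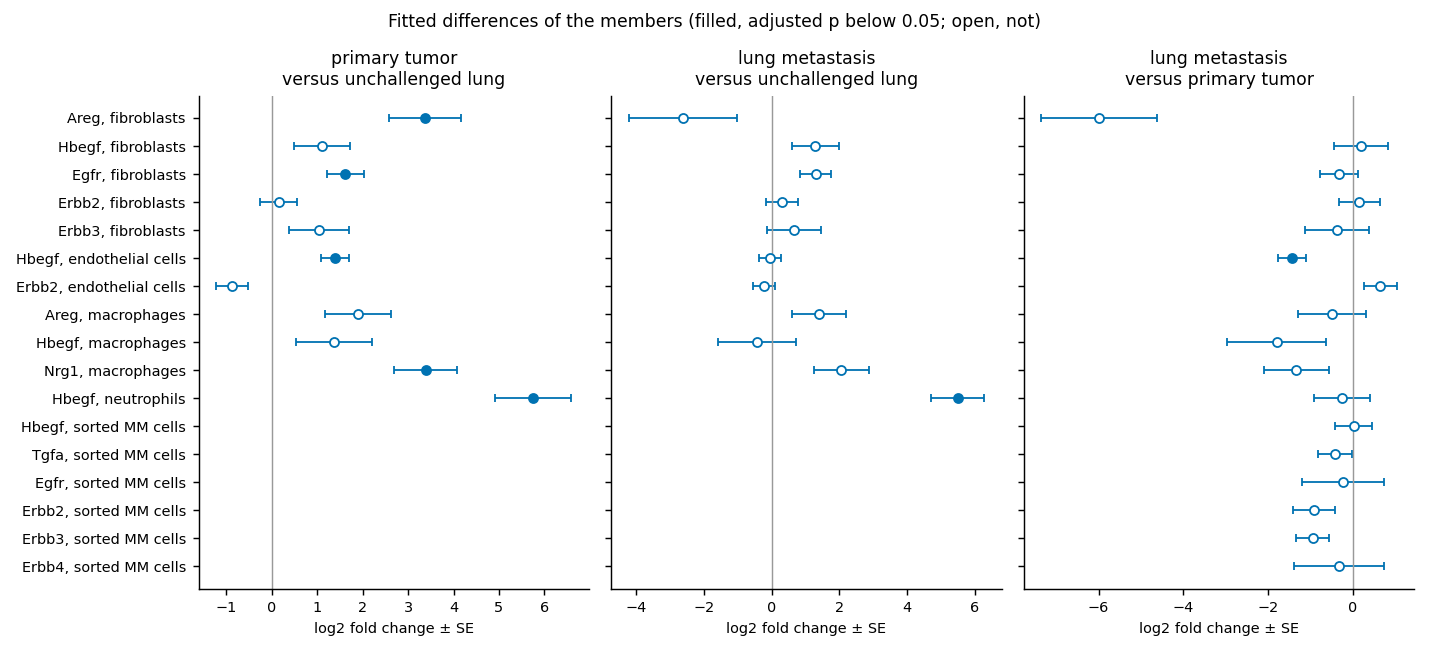
Log2 fold change with its standard error (edgeR) for each member tested, by cell class and by tissue contrast; filled points have an adjusted p below 0.05. The 7 filled points are Areg and Egfr in fibroblasts, Hbegf in endothelium and neutrophils and Nrg1 in macrophages.

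A list of 44 other genes of the pathway was read in the same fits. In fibroblasts of primary tumors against unchallenged lungs, 7 of 39 tested were higher and 2 lower, beside 12.1% of all genes called, with a median difference of 0.28 against -0.03 over all genes. Of its 15 ERK response genes, 14 were tested and 4 were higher (median 1.37). Etv4, a transcription factor of the ETS family, stood at 42.7, 49.8 and 49.3 CPM in primary tumors, 20.4 and 17.5 in lung metastases and 0, 0 and 0.24 in unchallenged lungs. Dusp4, a phosphatase that inactivates ERK, stood at 34.7, 60.6 and 126 CPM, 28.7 and 45.5, and 3.00, 0.99 and 1.93 in the same order. For both genes all libraries of tumor tissue were above all unchallenged lung libraries. These levels are of the whole class, with mesothelial-like cells and subclusters led by other types' genes kept in. Melanoma markers, given above, were also counted in this class, and their part in the Etv4 and Dusp4 results was not tested. Levels of both genes in melanoma cells, or in fibroblasts without mesothelial-like cells or such subclusters, are not given here. The differences and ratios that follow are therefore of the class as a whole. Etv4 was higher in primary tumors by 7.65 (SE 0.53, edgeR, adjusted p = 0.00035) and Dusp4 by 5.39 (SE 0.62, adjusted p = 0.0021). Against unchallenged lungs, Etv4 (6.37, SE 0.59, adjusted p = 0.0031) and Dusp4 (4.30, SE 0.67, adjusted p = 0.030) were also the 2 genes of the 39 tested called higher in lung metastases, beside 1.04% of all genes, and DESeq2 called 3. On summed UMIs Etv4 had 332 in primary tumors against 1 in unchallenged lungs, a ratio of CPM of 265 (95% counting interval 47.3 to 10503). Without unchallenged lung replicate 6, which held the 1 UMI, Etv4 was at least 21.6-fold higher. The ratio of Dusp4 was 57.1 (30.9 to 119.6), and 24.7 (12.8 to 53.4) without primary tumor replicate 6, which held 631 of its 715 UMIs. The other ERK response genes called in primary tumors were Ier3 (2.29, SE 0.62) and Spred1 (1.87, SE 0.33), the latter an inhibitor of the pathway. Leaving out each library in turn kept the calls of Etv4, Dusp4 and Spred1 in primary tumors, and that of Ier3 was lost without lung metastasis replicate 5 or 6, primary tumor replicate 5 or 6 or unchallenged lung replicate 4 or 5. In lung metastases the call of Etv4 was lost without replicate 5 (adjusted p = 0.056) and that of Dusp4 without lung metastasis replicate 5 or 6, primary tumor replicate 5 or unchallenged lung replicate 4 or 5.

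Other ligands of the family changed in fibroblasts too. Btc, an Egfr and Erbb4 ligand, was 19.6, 4.04 and 13.4 CPM in primary tumors, 7.18 and 0 in lung metastases and 0, 0.99 and 0.72 in unchallenged lungs. Nrg2, a neuregulin, ran the other way, at 0, 0 and 2.00 CPM in primary tumors, 4.42 and 0 in lung metastases and 18.0, 29.8 and 20.0 in unchallenged lungs. Btc was higher in primary tumors than in unchallenged lungs by 4.08 (SE 0.97, edgeR, adjusted p = 0.026) and Nrg2 lower by 4.15 (SE 0.82, adjusted p = 0.014). On 119 UMIs in unchallenged lungs and 10 in primary tumors the ratio of Nrg2 was 14.9 (95% counting interval 7.83 to 31.9), and without primary tumor replicate 6, which held the 10, Nrg2 was at least 13.5-fold higher in unchallenged lungs. Lrig1, which promotes ErbB receptor degradation, was higher by 2.09 (SE 0.52, adjusted p = 0.031). Of the 2 syndecans, heparan sulfate proteoglycans of the cell surface, Sdc1 was higher by 2.93 (SE 0.44) and Sdc4 lower by 1.65 (SE 0.33). Sdc4 was also the 1 gene of the 39 tested called between lung metastases and primary tumors, beside 1.1% of all genes, higher in the former by 2.22 (SE 0.35, adjusted p = 0.024). This call was lost without any 1 library of either tumor tissue, and that of Sdc4 in primary tumors without replicate 5 or 6. The call of Btc was lost without unchallenged lung replicate 6 (adjusted p = 0.068), Btc failed the filter on low counts without primary tumor replicate 4 or 6, and the call of Lrig1 was lost without any 1 primary tumor library or without unchallenged lung replicate 4 or 6.

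In endothelium of primary tumors against unchallenged lungs, 8 of 34 genes of the list were higher and 5 lower, beside 28.1% of all genes called (median 0.36 against -0.03 over all genes). The higher ones included Sdc1 (3.57, SE 0.66) and the ERK inhibitors Spry4 (1.41, SE 0.33) and Spry1 (1.31, SE 0.31). They also included the adaptor Shc1 (1.41, SE 0.21), Sos1 (0.94, SE 0.23) and the sheddase Adam10 (0.89, SE 0.21). Among the lower ones were Lrig3 (-2.42, SE 0.55) and Rhbdf2 (-1.79, SE 0.31), which is known to escort the sheddase Adam17. The ERK response gene Ier3 was lower too, at -0.93 to -0.57 without each library in turn. Its call was lost without primary tumor replicate 4 or 6 or unchallenged lung replicate 1. The call of Spry1 was lost without primary tumor replicate 6 (adjusted p = 0.053). Between lung metastases and primary tumors 2 of 34 were higher and 4 lower in edgeR, beside 11.8% of all genes, and DESeq2 called 8. The lower ones were Sdc1 (-2.59, SE 0.71), Spred1 (-1.16, SE 0.33), Shc1 (-1.09, SE 0.22) and Adam10 (-1.06, SE 0.21). The higher ones were Ier3 (1.57 to 1.92 without each library in turn) and Lrig3 (1.81 to 2.64). The call of Lrig3 was lost without lung metastasis replicate 4 or primary tumor replicate 4, 5 or 6. Between lung metastases and unchallenged lungs Ier3 alone was called of 34 in edgeR (1.00, SE 0.23), beside 3.39% of all genes, and 2 in DESeq2. That call was lost without lung metastasis replicate 5 or 6 or unchallenged lung replicate 4, 5 or 6. Between lung metastases and primary tumors the call of Sdc1 was lost without lung metastasis replicate 1 to 3, 4 or 6 or primary tumor replicate 4 or 6, and that of Spred1 without any 1 lung metastasis library or primary tumor replicate 5 or 6.

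In macrophages of primary tumors against unchallenged lungs, 6 of 35 were higher and 6 lower, beside 15.9% of all genes called (median 0.01 against -0.02). Nrg4, a ligand of Erbb4, was lower by 3.87 (SE 0.87), on 9 UMIs in primary tumors and 231 in unchallenged lungs, a ratio of CPM of 23.0 (95% counting interval 11.9 to 50.9). Without primary tumor replicate 4 the ratio was 7.02 (2.97 to 21.8) and the call of Nrg4 was lost (-2.52, adjusted p = 0.21), and without replicate 1 to 3 the ratio was 43.0 (16.6 to 159). Timp3, an inhibitor of the sheddases, was lower by 2.92 (SE 0.90), but its ranges overlapped, at 5.21 and 5.55 CPM in primary tumors and 2.72 to 103 in unchallenged lungs. The ratio of Timp3 between unchallenged lungs and primary tumors was 15.4, and 4.84 without unchallenged lung replicate 6, when the call was lost (-2.08, adjusted p = 0.136), as it was without 5 other libraries, in libraries of at least 50 cells, at clustering resolution 1.0 and without subclusters led by other types' genes (-1.29, adjusted p = 0.24). The endothelial markers given above were lower in macrophages of primary tumors as well, and their part in this result was not tested. Ier3 (3.05, SE 0.56), Sdc4 (2.66, SE 0.37), Etv5 (1.91, SE 0.38) and Errfi1, a feedback inhibitor of Egfr (1.46, SE 0.43), were among those higher. The calls of Etv5 and Errfi1 were lost without either primary tumor library, which leaves 1, and that of Errfi1 also without unchallenged lung replicate 4, 5 or 6. In lung metastases against unchallenged lungs, 3 were higher, Ier3, Sdc4 and Etv5, and 0 lower, beside 2.08% of all genes and 6 called by DESeq2, with the call of Etv5 lost without lung metastasis replicate 5 or 6 or unchallenged lung replicate 5. Against primary tumors 0 of 35 were called by edgeR (3 at an unadjusted p below 0.05) and 0 by DESeq2, beside 0.705% of all genes. In neutrophils 16 were tested. EdgeR called Ier3 (2.19, SE 0.45) and Phlda1 (1.25, SE 0.35) higher and Dusp6 lower (-1.26, SE 0.39) in lung metastases, and Ier3 (3.33, SE 0.49) and Egr1 (1.58, SE 0.36) higher in primary tumors, each against unchallenged lungs, beside 14.4% and 7.62% of all genes. DESeq2 called 1 and 3 of the 16 in these comparisons. In lung metastases the call of Ier3 was lost without replicate 6, that of Phlda1 without replicate 6 or unchallenged lung replicate 5 or 6, and that of Dusp6 without any 1 of the lung metastasis libraries or unchallenged lung replicate 5 or 6. In primary tumors that of Egr1 was lost without replicate 1 to 3 or unchallenged lung replicate 5 or 6. Between the tumor tissues edgeR called 0 of these 16 in neutrophils (2 at an unadjusted p below 0.05) and DESeq2 1, beside 0.229% of all genes. In sorted MM cells edgeR called 0 of 41 (1 at an unadjusted p below 0.05) and DESeq2 0, beside 0.00698% of all genes.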

How the data were processed

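The authors sequenced 10x Genomics 3' v3.1 libraries of dissociated, cryopreserved and sorted mouse cells and made UMI counts per gene and cell with Cell Ranger 6.1.1 on GRCm38; Seurat 3.2.2 is named in the processing notes. The deposited counts are whole numbers that are not normalized, and counting used the tool's default parameters, which take sense-strand reads of 3' libraries. The deposited log-normalized table was not used.

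Identical libraries were counted once. Cells were clustered on all genes except the members and the pathway list (2000 variable genes, 17 principal components, resolution 0.5, Seurat 5.3.0), and compartments again with 12 components. A cluster took a name from at least 3 raised markers of a fixed list. No doublet caller was run. Counts were summed per library and class (at least 20 cells), given as CPM, and tested with edgeR 4.0.16 (filterByExpr, TMM, quasi-likelihood) over 3 tissues in 1 fit per class, or the 4 sorted MM libraries. AT-2 cells allowed no comparison, with 1 lung metastasis library and none of the primary tumor with enough cells. DESeq2 1.42.0, other scaling, no filter, leaving out each library, replicate blocks, cell minimums, another resolution and other class definitions were alternatives. The fits were also run on simulated counts with large changes and a fixed spread, macrophages excepted. Such counts do not show how the fits do at the smaller changes and wider spreads met here.

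All 9 members were named, with pathway genes called in a comparison at a mean of at least 5 CPM (at most 20, by size) and the 3 genes most correlated with each member. The members and lists were chosen with earlier results of these data known. By the library names, same-numbered libraries of the tumor tissues share mice (2 and 3 in replicate 1 to 3, 17 in replicate 5, 18 in replicate 6) except replicate 4, and unchallenged lungs share none with them. Where a library name carried another replicate number than the labels (6 names), it was matched by group and mouse number, or as the one left in its group. Correlations of deviations of same-numbered libraries were -0.13 to 0.20 in fibroblasts (7 pairs, 2 above 0.1) and -0.11 to 0.19 in endothelium (10 pairs, 5 above 0.1). In sorted MM cells both pairs gave 0.38, equal by construction with 2 libraries per tissue. Tumor libraries that share mice gave 0.14, 0.16 and 0.17 in endothelium (replicates 1 to 3, 5 and 6), where the replicate 4 pair gave 0.016. They gave -0.13 and -0.064 in fibroblasts (replicates 5 and 6), 0.090 in macrophages and 0.098 in neutrophils (replicate 1 to 3). The main fits did not use this pairing. Promoters and positions were read from RefSeq GRCm38.p6 and the GRCm38 gene annotation, and Python 3.11.15 and R 4.3.3 were used. Intervals cover counting error only. Folds given as at least set a counted level over 3 UMIs in the group with 0, and leave out counting error in the counted UMIs. Promoters in the tables matched 5 of 9 members.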

Additional observations from a re-analysis of the deposited data

Results flagged for a closer look

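In groups of 4 to 10 libraries, 25 groups of members were tested for a library that stands apart by Dixon's ratio, which chance flags in about 1 of 20 groups. Areg in endothelium of primary tumors was 7.55 CPM in replicate 6 (10 UMIs) and 0 in the other libraries. In that library fibroblasts held Areg at 68.9 CPM, fibroblast markers summed to 2503 CPM in endothelium (747 to 1250 in the other primary tumor libraries), and 41.3% of its endothelial cells lay in subclusters led by other types' genes. Of the 10 UMIs 6 lay in a subcluster led by fibroblast genes, and without such subclusters Areg was 3.74 CPM. Tgfa in the same class was 7.55 CPM in replicate 6, below the 11.4 to 11.98 of the others. Erbb3 in macrophages of lung metastases was 33.1 CPM in replicate 5 and 0 to 3.81 in the others. Melanoma markers summed to 4511 CPM in that library and to 758 to 1835 in the other lung metastasis libraries of the class, and their part in the value was not tested.

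Tissue differences were also compared between classes, by an interaction term with library as a block in edgeR's quasi-likelihood fit, an analysis chosen after seeing the data. Of 58 such tests of members, 4 passed an adjusted p of 0.05. The difference of Hbegf between lung metastases and unchallenged lungs was smaller in endothelium than in neutrophils (-5.56 on the log2 scale, edgeR's adjusted p = 1.1e-07), where 1.06% of 9658 genes passed. For primary tumors against unchallenged lungs it was smaller in endothelium (-4.38, edgeR's adjusted p = 0.00042) and in macrophages (-4.88, edgeR's adjusted p = 7.7e-05) than in neutrophils, where 1.92% of 10918 and 5.73% of 10518 genes passed. The difference of Erbb3 between lung metastases and primary tumors was lower in fibroblasts than in endothelium (-3.15, edgeR's adjusted p = 0.030), where 5.81% of 10519 genes passed. Beside it, melanoma markers summed to 559 to 9099 CPM in endothelium of lung metastases and 478 to 2319 in that of primary tumors, and to 1732 to 6258 and 1646 to 6382 in fibroblasts. Subclusters led by other types' genes held 80.3% and 29.3% of the endothelium of these tissues, and neither part was tested.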

How the results depend on the processing

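Leaving out each library in turn moved Areg in fibroblasts between -9.01 and -4.80 for lung metastases against primary tumors and between 2.25 and 4.57 for primary tumors against unchallenged lungs. Egfr in fibroblasts moved between -0.85 and 0.045, 0.81 and 1.68, and 1.23 and 1.96 for lung metastases against primary tumors, lung metastases against unchallenged lungs and primary tumors against unchallenged lungs. The positive 0.045 (adjusted p = 1.00) came without lung metastasis replicate 5, and without mesothelial-like cells Egfr between lung metastases and unchallenged lungs turned to -0.62. Hbegf stayed between -2.07 and -1.23 and between 1.24 and 1.54 in endothelium and between 5.34 and 6.34 in neutrophils (where it failed the filter without lung metastasis replicate 6), Nrg1 in macrophages between 3.09 and 5.59 and Erbb3 in MM cells between -1.59 and -0.56. Areg between lung metastases and primary tumors was called by DESeq2 (-5.84), without a filter (-6.03), with the replicate block (-5.31), without unchallenged lung replicate 6 (-5.99) and without subclusters led by other types' genes (-6.17). Run 3 alone ended the calls of Egfr (1.70) and of Hbegf in endothelium between lung metastases and primary tumors (-1.20).

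Counts of all genes called moved more, and the cause was not tested. DESeq2 called 503 (endothelium) and 534 (fibroblasts) between lung metastases and unchallenged lungs, 321 in fibroblasts between lung metastases and primary tumors, 260 and 544 in macrophages between lung metastases and primary tumors or unchallenged lungs, 25 in neutrophils between the tumor tissues and 26 in MM cells, where DESeq2 size factors gave 7. Without a filter, so with more genes tested, the counts were 708 in endothelium (lung metastases against unchallenged lungs), 363, 723 and 2482 in fibroblasts, 483, 866 and 2981 in macrophages, 85, 1041 and 739 in neutrophils and 87 in MM cells. The replicate block gave 210, 513 and 1102 in macrophages and 2 (lung metastases against primary tumors) and 120 (primary tumors against unchallenged lungs) in neutrophils, and changed no call of a member other than those of Areg in fibroblasts and of Hbegf in macrophages between primary tumors and unchallenged lungs (4.59, adjusted p = 0.04996). It gave 115 in MM cells. Resolution 1.0 gave 117 in endothelium (lung metastases against unchallenged lungs) and 0 in MM cells. Libraries of at least 50 cells gave 79 in macrophages (lung metastases against unchallenged lungs). Alternatives added after seeing the data were run 3 alone, with 2318 in endothelium, 49 in fibroblasts and 1012 in macrophages between lung metastases and unchallenged lungs, fibroblasts without mesothelial-like cells, with 53 and 2 for lung metastases against primary tumors and unchallenged lungs, classes without subclusters led by other types' genes, with 479 and 129 in endothelium and 420 and 561 in fibroblasts for the same pairs, and C1q macrophages alone, with 0, 586 and 665.

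Without each library in turn the counts ranged over 747 to 1529, 113 to 825 and 2051 to 3190 in endothelium, 2 to 355, 6 to 297 and 398 to 1310 in fibroblasts, 0 to 233, 78 to 527 and 364 to 2090 in macrophages, 1 to 40, 198 to 846 and 88 to 571 in neutrophils, each for lung metastases against primary tumors, lung metastases against unchallenged lungs and primary tumors against unchallenged lungs, and 14 to 52 in MM cells.

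Shares of cells with a UMI depend on depth. Without thinning, against 1000 UMIs, the medians were 20.7% against 4.29% for Areg in ciliated cells, 1.15% against 0 for Ereg in fibroblasts, 8.82% against 2.38% for Hbegf in AT-2 cells, 5.51% against 1.499% for Tgfa and 19.0% against 3.44% for Nrg1 in ciliated cells, 25.2% against 7.60% for Egfr in fibroblasts, 13.4% against 4.12% for Erbb2 in club cells, and 31.9% against 6.43% for Erbb3 and 0.244% against 0.032% for Erbb4 in melanoma cells. At 2000 UMIs they were 13.8% (Areg), 4.97% (Hbegf), 9.96% (Nrg1), 20.6% (Egfr), 14.3% (Erbb3) and 0.0914% (Erbb4). Median levels in CPM moved by less than the spread between libraries with at least 50 cells or at resolution 1.0. Genes such as Ereg and Erbb4, with few UMIs, are limited by depth.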

Other observations

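A cluster that took no name from the marker lists, led by Col2a1 and Ccn2 and holding 1768 cells of 9 libraries, had the highest median of several members. Erbb3 there was 101 to 182 CPM (median 131), Hbegf 13.6 to 76.9 (median 31.0) and Tgfa 12.3 to 19.5 (median 17.1), with 15 UMIs of Erbb4 and 0 of Ereg. Melanoma markers summed to 7185 to 24856 CPM in it.

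Over 98 units of a library and a cell type (13 types, 11811 genes), the genes whose log2(CPM + 1) ran most like each member were, by Pearson's r across units that share libraries and depth and so with no p, the following. Areg ran most like Capsl (0.74), Esrp1 (0.73) and Gm16136 (0.72), and Nrg1 like Capsl (0.75), Cds1 (0.74) and Dnaaf3 (0.73). Ereg ran most like Fbn2 (0.76), Rian (0.68) and Notch3 (0.66), and Egfr like Fzd2 (0.86), Notch3 (0.86) and Ephb3 (0.84). Hbegf ran most like Dab2ip (0.73), Ppic (0.70) and P3h4 (0.70), and Tgfa like Baiap2l1 (0.84), Epb41l4a (0.82) and Sorbs2 (0.80). Erbb2 ran most like Fzd8 (0.87), Vangl1 (0.83) and Atp9a (0.83), Erbb3 like Sorcs2 (0.82), Sox6 (0.82) and Sema3b (0.80), and Erbb4 like Col2a1 (0.71), Shisa2 (0.68) and Gm15594 (0.66). Capsl was named for both Areg and Nrg1 and Notch3 for both Ereg and Egfr, and the members themselves were not used in clustering.

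Airway cells of a subcluster led by Trp63 and Krt5 held Hbegf at 50.5 and 88.4 CPM in lung metastases and 41.4 in unchallenged lung replicate 6.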
